A study of Mus musculus with 24 samples.

Results

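Measured here were 10 genes that build or break down neutral lipid in liver: Gpam, Agpat2, Agpat3, Lpin1, Lpin2, Dgat1, Dgat2 and Mogat1 for triglyceride synthesis, and Lipe and Mgll for its breakdown. The list of genes was chosen with earlier results of these data known. From it, every probe that the array names after one of the genes was taken, by a rule that uses no measured value. The array holds 26 such probes out of 56605, and 23 of them passed the filter on dim probes, out of 32037 passing overall. All 10 genes were represented among the 21331 tested.

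The livers came from 24 male C57Bl/6J mice, 6 in each of 4 groups, with 1 single-colour array per mouse. LWT vehicle and LKO vehicle mice received 0.5% carboxymethyl cellulose by gavage at Zeitgeber time 10 h. LWT CL316243 and LKO CL316243 mice received 3 mg/kg CL316243, which activates beta3 adrenergic receptors, in the same vehicle, and the labels call these groups Beta3. All mice ate a standard rodent diet freely and were killed at Zeitgeber time 16 h, in the dark phase. By the series title, LWT livers express the nuclear receptor PPARα in hepatocytes and LKO livers do not. The labels give neither the Cre driver, nor the part of Ppara removed, nor the age of the mice. The comparisons ask how the agonist changed these genes in liver and how far the change depended on hepatocyte PPARα.

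Hepatocytes make triglyceride by adding fatty acyl groups to glycerol 3-phosphate one after another, removing the phosphate to give diacylglycerol, and adding a last acyl group. A side route starts from monoacylglycerol. Stored triglyceride is broken down in steps by lipases, of which hormone-sensitive lipase acts mainly on diacylglycerol and monoacylglycerol lipase removes the last chain. In adipose tissue, beta3 adrenergic signalling is known to drive this breakdown and to release fatty acids into blood, and fatty acids are ligands of PPARα.

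Signals are given as log2 of the processed intensity minus log2 of the 75th percentile of the same array, so that 0 is a spot at that percentile. A level belongs to its probe, and levels of different probes are not compared. Changes are differences of group means on this scale with 95% intervals from limma, and a gene is called when its Benjamini-Hochberg adjusted p over all 21331 genes was under 0.05. The brightest kept probe represents its gene. Probe positions are in build mm9. The array annotation gives no exon or UTR for them.

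Between 26985 and 34202 probes were well above background on each array, and no spot was saturated. Each of the 3 slides carried 2 mice of every group. Under vehicle the probe that represents Ppara lay at 5.45 to 5.93 in LWT and 4.81 to 5.18 in LKO, and under CL316243 at 5.70 to 6.42 and 3.06 to 4.85, so the genotypes did not overlap under either treatment. LKO was 3.76-fold lower under CL316243 (adjusted p 3.60e-07) but only 1.60-fold lower under vehicle, which was not called (adjusted p 0.158). This vehicle difference was called when both agonist arrays of replicate 3 were left out (-0.68, adjusted p 1.30e-04). A second Ppara probe was called under vehicle with all arrays (-0.92, adjusted p 0.0188 over all probes). Both probes may lie outside the deleted part and then check nothing. The summed linear signal of 7 hepatocyte markers overlapped between all groups, as did those of 6 macrophage, 5 endothelial and 6 stellate cell markers. Linear sums mostly follow their brightest markers, so they can hide single markers that moved. The endothelial marker Lyve1 lay in LKO at -2.08 to -1.30 under vehicle and 0.18 to 1.93 under CL316243. In LWT the median of endothelial Kdr went from 2.46 to 2.01 with CL316243 and that of stellate Lrat from -0.85 to -1.47, with overlap. With CL316243, the sum of 4 cholangiocyte markers went from 0.654 to 1.23 up to 1.38 to 5.72 in LKO, and that of 5 neutrophil markers from 2.0 to 3.15 up to 3.38 to 43.5, without overlap. In the first sum Sox9 rose in LKO (by 2.18) and Krt7, Krt19 and Epcam were not called. In the second S100a8, S100a9 and Cxcr2 rose in LKO (by 2.30, 2.25 and 1.84) and Ly6g and Mpo were not called. Sox9 was also higher with CL316243 in LWT without overlap (-1.18 to -0.47 under vehicle, -0.39 to 1.38 under CL316243). The LWT medians of S100a8, S100a9 and Cxcr2 went from -1.31 to 0.51, 0.71 to 2.47 and -4.89 to -3.79, with overlap. Of 5 pancreas markers 2 passed the filter, and the sum of all 5 was lower under CL316243 in LWT (0.510 to 0.666 against 0.855 to 1.40). Of the 2 that passed, Cela2a was lower in LWT without overlap, while Ctrb1 overlapped. Of 3 brown adipocyte markers 2 passed, Cidea and Elovl3. The sum of all 3 was higher in LWT under CL316243 (12.3 to 31.7 against 5.02 to 10.4). Cidea and Elovl3 were both higher there without overlap, but the linear sum mostly follows Elovl3, the brighter. Elovl3 was well above background on 6 of 6 LWT vehicle arrays too. Ucp1, the third marker, was so on 0 of 6 arrays in either LWT group. The part of these cell types in the results on the 10 genes was not tested. Replicate 3 stood apart in both agonist groups: it was the lowest of its group for 8 of 10 members in LWT CL316243 and for 7 of 10 in LKO CL316243, and Ppara was lowest in it in both groups too. Replicate 3 was also the lowest LWT vehicle mouse for 6 of 10 members and for Ppara, and leaving that mouse out changed no call of the 10 genes. Results that rest on the agonist arrays are given with and without both of them. In RNA from whole liver, fewer cells of a type and less RNA per cell cannot be told apart.

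**Figure D1:**
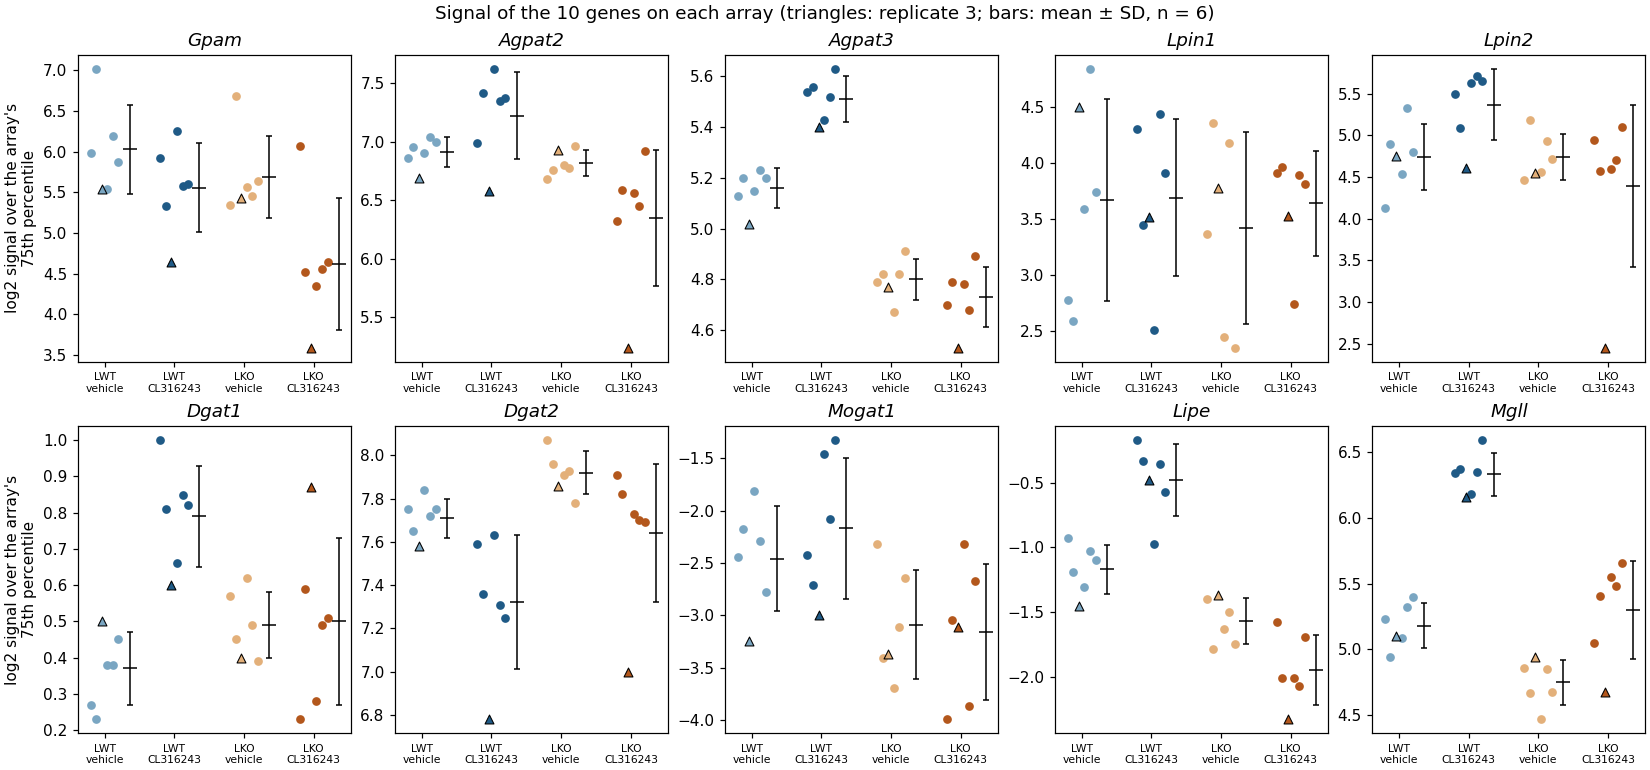
Log2 signal over the array's 75th percentile for the 10 genes, one panel per gene, with a point per mouse in 4 groups of 6, triangles for replicate 3 and bars for mean ± SD. All LWT CL316243 mice stand above all other mice for Agpat3 and Mgll, and LKO CL316243 replicate 3 lies far below its group for Agpat2 (5.24) and Lpin2 (2.45).

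In LWT livers Mgll, Lipe, Dgat1 and Agpat3 rose with CL316243 and Dgat2 fell. In LKO livers Mgll rose, and Lipe and Gpam fell. The outcome was that under CL316243 7 of the 10 genes were lower in LKO than in LWT livers, by 1.22-fold for Dgat1 to 2.77-fold for Lipe, while under vehicle only Agpat3 was called. In LWT livers 4 members were called higher and 1 lower, 5 of 10, where 38.3% of all genes tested were called, 18.9% higher and 19.4% lower. The median change of the members was 0.34, against 0.01 over all genes. In LKO livers 1 was called higher and 2 lower, where 40.3% of all genes were called, 20.9% higher and 19.4% lower, with a median of -0.18 against 0.03. For 10 genes, the counts of 5 in LWT and 3 in LKO lie near these shares of all genes. With 1 mouse left out they ran over 4 to 6 in LWT and 2 to 4 in LKO.

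The difference of both agonist effects, LKO minus LWT, was called for 2 of 10 members, Agpat3 and Lipe, both lower, against 5.41% of all genes, 2.17% called higher and 3.24% lower. Its median over the members was -0.51, against 0.03 over all genes. LKO against LWT under vehicle was called for 1 of 10, against 1.18% of all genes, 0.398% called higher and 0.778% lower, with a median of -0.30 against -0.02. Under CL316243 it was called for 7 of 10, all lower, against 15.9% of all genes, 7.74% called higher and 8.17% lower, with a median of -0.90 against 0.01. The agonist groups enter this last comparison and the agonist effects alike, so these counts are not independent of each other. Every mouse of one group lay beyond every mouse of the other for 3 members between treatments in LWT (20.4% of all genes), 0 in LKO (20.8%), 2 between genotypes under vehicle (1.80%) and 3 under CL316243 (6.56%).

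Without both agonist arrays of replicate 3, 7 members were called in LWT, 2 in LKO, 4 in the difference of effects, 2 under vehicle and 8 under CL316243. Of all 21331 genes, that fit called 4146 higher and 4110 lower in LWT, and 4169 and 3940 in LKO. It called 661 and 889 in the difference of effects, 115 and 212 under vehicle, and 1773 and 1969 under CL316243. The member count in the difference of effects also rose to 4 when LWT CL316243 replicate 3 alone was left out. The vehicle count rose to 2 when LKO CL316243 replicate 3 alone was. The count of 7 under CL316243 fell to 4 when LWT CL316243 replicate 5 or replicate 6 was left out, since Lpin2, Dgat1 and Mogat1 lie near the threshold.

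**Figure D2:**
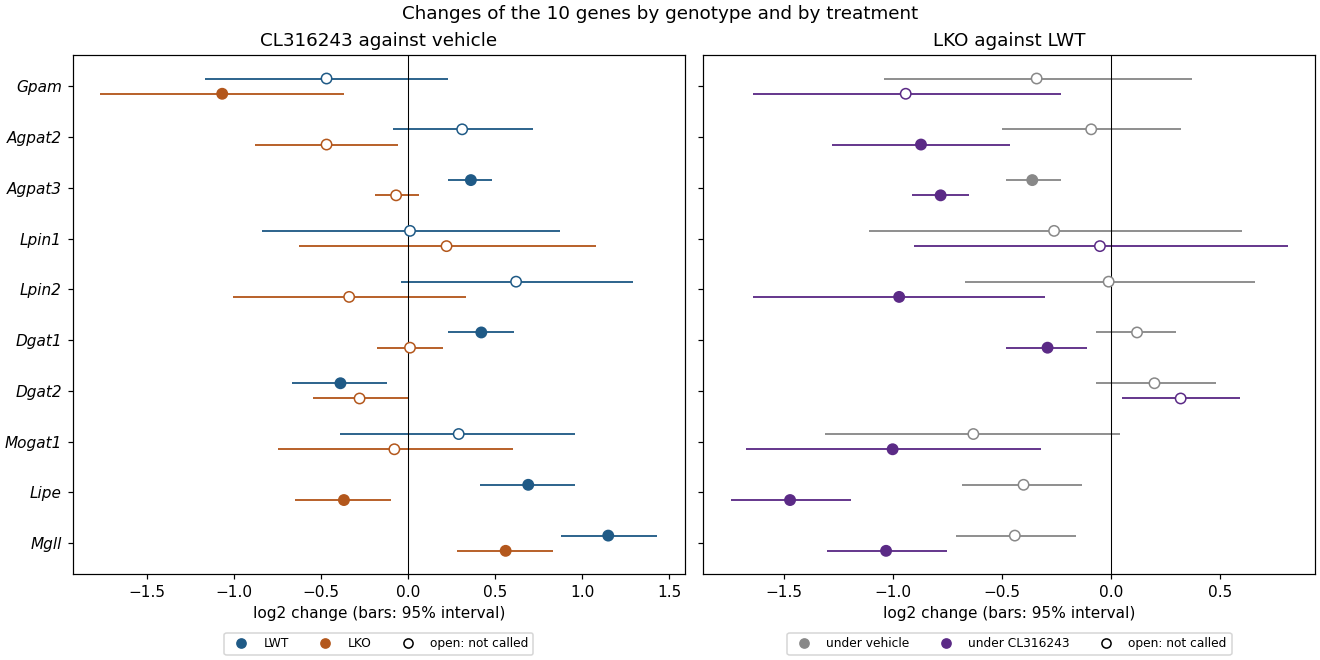
Log2 change of each of the 10 genes with its 95% interval: CL316243 against vehicle in each genotype on the left, LKO against LWT under each treatment on the right, filled where called. For 7 genes the filled violet points lie below 0, from -0.29 for Dgat1 to -1.47 for Lipe, and Lipe has filled points on both sides of 0 between treatments.

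The first acylation is carried out by the enzyme of Gpam, the mitochondrial glycerol-3-phosphate acyltransferase (probe on the minus strand of chromosome 19, 55142203 to 55142262). Its signal ran from 5.54 to 7.02 with a median of 5.93 in LWT vehicle, from 4.65 to 6.26 with a median of 5.59 in LWT CL316243, from 5.34 to 6.69 with a median of 5.52 in LKO vehicle and from 3.59 to 6.07 with a median of 4.54 in LKO CL316243. In LKO CL316243, 5 of 6 mice lay below every LKO vehicle mouse, and replicate 1 at 6.07 lay among them. Gpam fell with CL316243 in LKO by 1.07 (95% interval -1.77 to -0.37, adjusted p 0.0149), and by 0.86 without both agonist arrays of replicate 3 (adjusted p 0.0340). In LWT the change was -0.47 (-1.17 to 0.23, adjusted p 0.297), and the effects differed by -0.60 (-1.59 to 0.39, adjusted p 0.564), so a difference between genotypes in this effect was not shown. LKO CL316243 was lower than LWT CL316243 by 0.94 on average without passing the test (adjusted p 0.0639). The second, dimmer Gpam probe gave -0.77 in LWT and -1.36 in LKO (adjusted p 0.00377 over all probes), and -1.03 between genotypes under CL316243, just past the threshold (adjusted p 0.0499).

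Agpat2 and Agpat3 encode 1-acylglycerol-3-phosphate acyltransferases, which add the next acyl group to give phosphatidic acid. Agpat3 was the steadiest of the members (chromosome 10, 77736356 to 77736415, minus strand). Its signal was 5.02 to 5.23 in LWT vehicle (median 5.18), 5.40 to 5.63 in LWT CL316243 (median 5.53), 4.67 to 4.91 in LKO vehicle (median 4.81) and 4.53 to 4.89 in LKO CL316243 (median 4.74). The LWT agonist group lay wholly above LWT vehicle, and both LKO groups lay wholly below both LWT groups and overlapped each other. With CL316243, Agpat3 rose by 0.36 in LWT (0.23 to 0.48, adjusted p 8.72e-05), against a difference of -0.07 in LKO (-0.19 to 0.06, adjusted p 0.403). The effects differed by -0.42 (-0.60 to -0.24, adjusted p 0.00410), with values of -0.60 to -0.32 within the 3 slides. LKO was lower than LWT by 1.28-fold under vehicle (log2 -0.36, adjusted p 0.00163) and by 1.72-fold under CL316243 (log2 -0.78, adjusted p 2.51e-09), in 6 of 6 mice each time. A second Agpat3 probe gave larger differences of the same sign, 0.57 with CL316243 in LWT and -0.98 between genotypes under CL316243.

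For Agpat2 (chromosome 2, 26448610 to 26448669, minus strand), mutated in a human lipodystrophy, the vehicle groups overlapped closely and the agonist groups were wider. Signals were 6.69 to 7.04 in LWT vehicle (median 6.93), 6.58 to 7.62 in LWT CL316243 (median 7.36), 6.68 to 6.96 in LKO vehicle (median 6.79) and 5.24 to 6.92 in LKO CL316243 (median 6.51). The lowest value in both agonist groups was that of replicate 3. Under CL316243, Agpat2 was 1.83-fold lower in LKO than in LWT (log2 -0.87, 95% interval -1.28 to -0.46, adjusted p 0.00318), or -0.78 without both arrays of replicate 3 (adjusted p 2.61e-05). The agonist effects were 0.31 in LWT (adjusted p 0.224) and -0.47 in LKO (adjusted p 0.0614), neither called, and differed by -0.78 (adjusted p 0.113). Without both arrays of replicate 3 the LWT effect was 0.44 (adjusted p 0.00210) and the difference of effects -0.69 (adjusted p 0.00532), both past the threshold. The other Agpat2 probe, A_51_P238563, fell in LKO by 0.73 (adjusted p 0.00390) and had a called difference of effects of -1.10 (adjusted p 0.0150), and without both arrays of replicate 3 these were -0.52 and -0.99, still called. This probe is annotated as starting at base 727 of the transcript, and its match on chromosome 2 spans 26448577 to 26448603. That match covers 27 bases, while the probe has 60. It is shown because the calls for this gene turn on it.
Agpat2 probe A_51_P238563: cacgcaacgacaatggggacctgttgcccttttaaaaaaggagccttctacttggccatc

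Lipins are phosphatidic acid phosphatases, which produce diacylglycerol, and lipin 1 also acts in the nucleus as a coactivator with PPARα. Lpin1 varied more between mice of a group than between groups (chromosome 12, 16543023 to 16543082, minus strand). Its signal ran from 2.59 to 4.84 in LWT vehicle (median 3.66), 2.51 to 4.44 in LWT CL316243 (median 3.71), 2.35 to 4.36 in LKO vehicle (median 3.57) and 2.74 to 3.96 in LKO CL316243 (median 3.85). No comparison was called for any of its 4 probes, and the intervals of the represented probe were wide, -0.84 to 0.87 for the effect in LWT and -0.63 to 1.08 in LKO. Changes of the sizes inside these intervals were not excluded for Lpin1 at this number of arrays.

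Lpin2 is the other lipin measured here as a member, and liver is among the tissues known to express it strongly (chromosome 17, 71598998 to 71599057, plus strand). Its signal was 4.13 to 5.33 in LWT vehicle (median 4.78), 4.61 to 5.72 in LWT CL316243 (median 5.57), 4.47 to 5.19 in LKO vehicle (median 4.64) and 2.45 to 5.10 in LKO CL316243 (median 4.65). Replicate 3 of LKO CL316243, at 2.45, lay far below the next mouse of its group at 4.57. Under CL316243, Lpin2 was lower in LKO than in LWT by 0.97 on the log2 scale (-1.64 to -0.30, adjusted p 0.0424), and by 0.74 without both arrays of replicate 3 (adjusted p 0.00749). Within the slides this difference was -2.13, 0.17 and -0.96, so it was not seen in 1 of the 3. Each slide holds only 2 mice of each group. The slide with -2.13 held LKO CL316243 replicate 3, and that with 0.17 held LWT CL316243 replicate 3, the lowest of its group at 4.61. The call was lost when any of 7 agonist-treated mice was left out, with adjusted p up to 0.0886. The agonist effects were 0.62 in LWT (adjusted p 0.135) and -0.34 in LKO (adjusted p 0.422). Without both arrays of replicate 3 the LWT effect was 0.78 and was called (adjusted p 0.00146), and the LKO effect was 0.05.

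Of the 6 Lpin2 probes, A_51_P370438 gave the clearest values. Under vehicle it lay at -0.91 to 0.05 in LWT and -0.51 to 0.29 in LKO, and under CL316243 at 0.05 to 0.81 and -1.14 to 0.04, where the genotypes did not overlap. It rose in LWT by 0.94 (0.53 to 1.35, adjusted p 6.92e-04) and the effects differed by -1.19 (-1.76 to -0.61, adjusted p 0.0118), where the represented probe gave no call. It starts at base 2612 of its transcript and matches 71595823 to 71596189 of chromosome 17. The 4 others had changes of 0.11 to 0.59 in LWT and -0.32 to -0.25 in LKO, and none of these was called. Of these 4, A_55_P2729608 was also lower in LKO under CL316243 (-0.94, adjusted p 0.0449). With both agonist arrays of replicate 3 left out, its increase in LWT was 0.78 and was called (adjusted p 0.00125 over all probes). The increase was then also called for the represented probe (0.78, adjusted p 0.00151) and A_51_P370438 (1.05, adjusted p 4.11e-05). The difference of effects was still called for A_51_P370438 only (-1.14, adjusted p 0.00360). The sequence of A_51_P370438 is given because that call depends on which probe reads Lpin2.
Lpin2 probe A_51_P370438: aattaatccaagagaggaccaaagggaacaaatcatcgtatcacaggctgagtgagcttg

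The last acylation is shared by unrelated enzymes encoded by Dgat1 and Dgat2, which moved in opposite directions in LWT livers. Dgat1 (chromosome 15, 76333128 to 76333274, minus strand) had signals of 0.23 to 0.50 in LWT vehicle (median 0.38), 0.60 to 1.0 in LWT CL316243 (median 0.81), 0.39 to 0.62 in LKO vehicle (median 0.47) and 0.23 to 0.87 in LKO CL316243 (median 0.50). The LWT groups did not overlap, while the LKO agonist mice reached both below and above their vehicle group. In LWT, Dgat1 rose by 0.42 (0.23 to 0.61, adjusted p 7.91e-04), while the LKO difference was 0.01 (-0.18 to 0.20, adjusted p 0.948). The difference of effects was -0.41 (-0.67 to -0.15) and did not pass the threshold (adjusted p 0.0637). It was -0.52 and called without both arrays of replicate 3 (adjusted p 0.00388). For this gene LKO CL316243 replicate 3 was the highest of its group. Under CL316243, Dgat1 was 1.22-fold lower in LKO (log2 -0.29, adjusted p 0.0286), a call that was lost without any of 6 agonist-treated mice.

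Dgat2 (chromosome 7, 106302215 to 106302274, minus strand), regarded as the main enzyme for newly made fatty acids in hepatocytes, was the only member with a called decrease in LWT. Signals were 7.58 to 7.84 in LWT vehicle (median 7.73), 6.78 to 7.63 in LWT CL316243 (median 7.34), 7.78 to 8.07 in LKO vehicle (median 7.92) and 7.0 to 7.91 in LKO CL316243 (median 7.72). Replicate 3 was the lowest in both agonist groups. Dgat2 fell in LWT by 0.39 (-0.67 to -0.12, adjusted p 0.0215), and by 0.29 without both arrays of replicate 3 (adjusted p 0.00430). Leaving out LWT CL316243 replicate 3 alone ended the call (adjusted p 0.0663). In LKO the change was -0.28 (-0.55 to 0.00, adjusted p 0.0982), and the effects differed by 0.12 (-0.27 to 0.50, adjusted p 0.810). It was the one member whose mean was higher in LKO than in LWT under CL316243, by 0.32 (0.05 to 0.59, adjusted p 0.109), which was 0.34 and called without both arrays of replicate 3 (adjusted p 0.00369).

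Mogat1 encodes a monoacylglycerol acyltransferase, the side route to diacylglycerol. Only 1 of its 3 probes was kept, and it was dim (chromosome 1, 78534646 to 78534705, plus strand), while the others were well above background on 3 and 0 of 24 arrays. Its signal was -3.24 to -1.81 in LWT vehicle (median -2.37), -3.00 to -1.33 in LWT CL316243 (median -2.25), -3.69 to -2.32 in LKO vehicle (median -3.24) and -3.99 to -2.32 in LKO CL316243 (median -3.08). The agonist changes were 0.29 in LWT and -0.08 in LKO, neither called. LKO was lower by 0.63 under vehicle (adjusted p 0.676, not called) and by 1.0 under CL316243 (-1.67 to -0.32, adjusted p 0.0394). The call held in 7 of 12 alternatives, and with normexp background correction the difference was only -0.48 (adjusted p 0.0622). With slide as a block its adjusted p was 0.0505, and the values within slides were -1.68, -0.47 and -0.84. Leaving out any of 6 agonist-treated mice ended the call (adjusted p up to 0.105).

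Lipe, which encodes hormone-sensitive lipase, was the member whose agonist effects were called in opposite directions. The probe that represents it was designed on a cDNA clone and lies on chromosome 7 at 26167986 to 26168045 (minus strand). Its signal was -1.45 to -0.93 in LWT vehicle (median -1.15), -0.97 to -0.17 in LWT CL316243 (median -0.42), -1.79 to -1.37 in LKO vehicle (median -1.57) and -2.33 to -1.58 in LKO CL316243 (median -2.01). The LWT agonist mice lay wholly above the LKO agonist mice, and every group overlapped its own vehicle group slightly. Lipe rose in LWT by 0.69 (0.41 to 0.96, adjusted p 2.73e-04) and fell in LKO by 0.37 (-0.65 to -0.10, adjusted p 0.0279). The effects differed by -1.06 (-1.45 to -0.68, adjusted p 9.68e-04), and by -1.38 to -0.70 within slides. Under CL316243, LKO was 2.77-fold lower (log2 -1.47, adjusted p 2.61e-08), and under vehicle the difference was -0.40 (adjusted p 0.229), with all 6 LKO mice below the LWT mean. The decrease in LKO was not called without LKO CL316243 replicate 3 (-0.30, adjusted p 0.0799), nor without any of 4 other LKO mice.

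The Lipe probe designed on the RefSeq mRNA, A_51_P435363, showed the same directions. It starts at base 2231 of the transcript and lies on chromosome 7 at 26165828 to 26165887. In LWT its signal was -3.93 to -3.16 under vehicle and -2.95 to -1.78 under CL316243. In LKO it was -4.05 to -3.03 and -5.62 to -4.23, and under CL316243 it was well above background on only 2 of 6 arrays. Neither treatment overlapped the other in either genotype with this probe. It rose 2.40-fold in LWT (log2 1.26, adjusted p 1.25e-04). It was lower with CL316243 in LKO, and lower in LKO than in LWT under CL316243, and the fit called both (adjusted p 2.71e-04 and 1.78e-08) and the difference of effects (adjusted p 2.98e-05). Since most arrays of LKO CL316243 were not well above background, the sizes of these differences are not given. Without both arrays of replicate 3 the decrease in LKO was still called (adjusted p 9.87e-05). The last Lipe probe was well above background on 0 of 24 arrays and was not used.
Lipe probe A_51_P435363: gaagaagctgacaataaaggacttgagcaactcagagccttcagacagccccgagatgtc

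Hormone-sensitive lipase is abundant in adipocytes, so adipocyte markers are given beside it. Of 6 adipocyte markers, 5 passed the filter, and their summed linear signal relative to the 75th percentile was 2.43 to 4.29 in LWT vehicle, 4.39 to 32.8 in LWT CL316243, 2.15 to 3.10 in LKO vehicle and 4.08 to 9.86 in LKO CL316243. Of these, Fabp4 rose by 2.86 in LWT and 1.63 in LKO. Plin1, Lep and Retn were called in no comparison, and Cfd was lower in LKO under both treatments. Adiponectin (Adipoq) was well above background on 0, 1, 3 and 2 of 6 arrays in LWT vehicle, LWT CL316243, LKO vehicle and LKO CL316243, and Ucp1, the defining gene of brown adipocytes, on 0, 0, 0 and 1. In LWT, Lipe and Fabp4 were higher with CL316243, and in LKO Lipe was lower while Fabp4 was higher. Under CL316243 the median of Fabp4 was 3.94 in LWT and 2.35 in LKO. Lep, the next in signal, was at -0.95 and -0.83. The linear sum therefore mostly follows Fabp4 and is no second measure beside it. The part of adipocyte RNA in the Lipe result was not tested.

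Mgll, which encodes monoacylglycerol lipase, had the largest increase in both genotypes among the probes that represent the 10 genes. Its represented probe lies on chromosome 6 at 88778292 to 88778351 (plus strand). Signals were 4.94 to 5.40 in LWT vehicle (median 5.17), 6.16 to 6.59 in LWT CL316243 (median 6.35), 4.47 to 4.94 in LKO vehicle (median 4.77) and 4.68 to 5.66 in LKO CL316243 (median 5.44). The LWT agonist mice lay above all others, and in LKO only replicate 3, at 4.68, lay within the range of its vehicle group. Mgll rose 2.22-fold in LWT (log2 1.15, 0.88 to 1.43, adjusted p 6.83e-07) and 1.47-fold in LKO (log2 0.56, 0.28 to 0.83, adjusted p 0.00191). The difference of effects, -0.59 (-0.98 to -0.20), did not pass the test (adjusted p 0.0695). LKO was 2.04-fold lower under CL316243 (log2 -1.03, adjusted p 5.84e-06). Under vehicle it was lower by 0.44 with no overlap between the groups, which was not called (adjusted p 0.164) unless both agonist arrays of replicate 3, or that of LKO alone, were left out (adjusted p 0.0337 without both).

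The other Mgll probe, A_55_P2063312, starts at base 666 of the transcript (chromosome 6, 88714636 to 88714695). Its increase in LWT was 1.32 (1.0 to 1.64, adjusted p 1.04e-06), with a difference of 0.26 in LKO (-0.06 to 0.59, adjusted p 0.186), and here the effects did differ, by -1.06 (-1.51 to -0.60, adjusted p 0.00464). Without both arrays of replicate 3 its LKO change was 0.40 and was called (adjusted p 0.0243), and the difference of effects was -0.90 (adjusted p 0.00518). Both probes rose in LWT and were lower in LKO than in LWT under CL316243, and they disagreed on the calls for the LKO effect and for the difference of effects. The sequence shows which stretch of the mRNA was read.
Mgll probe A_55_P2063312: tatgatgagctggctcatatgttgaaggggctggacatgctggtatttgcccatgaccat

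**Figure D3:**
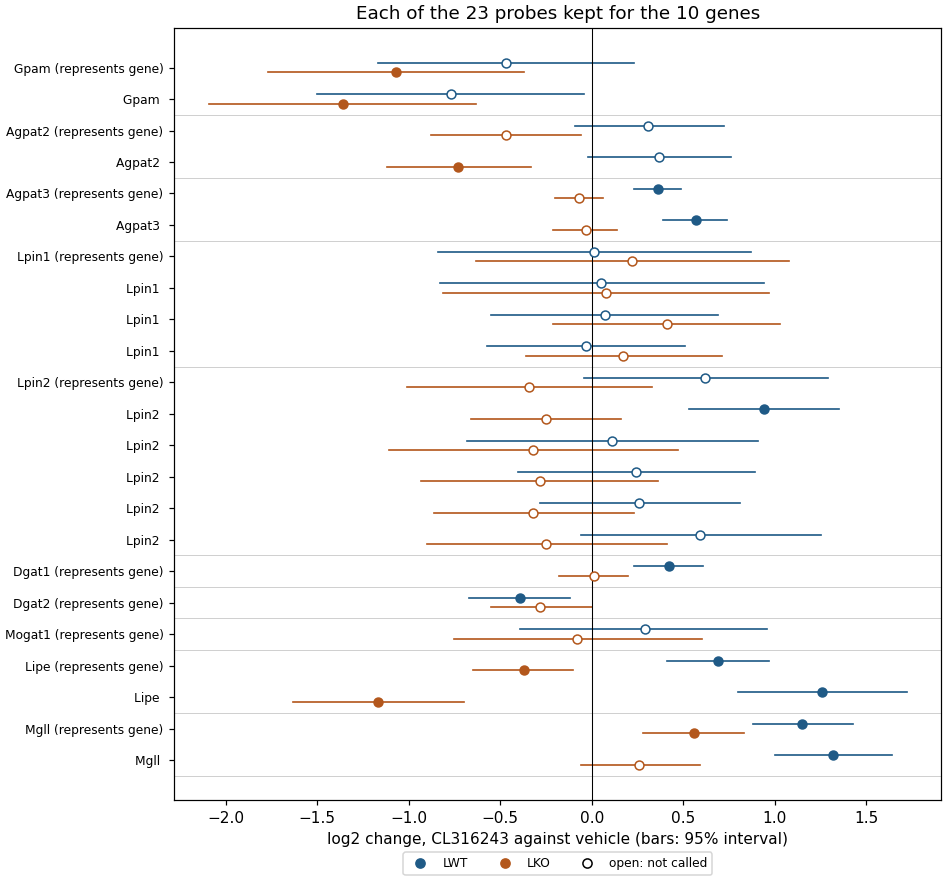
Log2 change with CL316243 for each of the 23 kept probes with its 95% interval, LWT in blue and LKO in orange, filled where called over all 32037 probes. Both Lipe probes have filled points on opposite sides of 0, and all 4 Lpin1 probes have open points with wide intervals.

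Counted by probe, 9 of 23 were called in LWT (8 higher and 1 lower, with 37.6% of all probes called), 6 of 23 in LKO (1 higher and 5 lower, 41.0%), 7 of 23 in the difference of effects (all lower, 5.96%), 2 of 23 between genotypes under vehicle (both lower, 1.11%) and 14 of 23 under CL316243 (all lower, 15.4%). The 7 probes in the difference of effects belong to Agpat2, Lpin2 and Mgll with 1 probe each, and to Agpat3 and Lipe with 2 each. Probes of a gene share its RNA and are not replicates.

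By the probes that represent them, Lipe and Mgll had the largest folds between genotypes under CL316243, and the start regions of both are shown with the motif matches found in them. RefSeq sequences of 250 bases before to 50 bases after a start site (GRCm38.p6) were held for 8 of the 10 members, in 13 windows. Motifs were searched on both strands: AGGTCA, the nuclear receptor core site, the DR1 element, which is 2 copies of that core in the same direction with 1 base of any kind between them, and of the kind PPARα is known to bind as a heterodimer, CACGTG, an E-box bound by clock and lipogenic factors, and TGTTTAC, a forkhead site. The repeat contains the core site, and no other pair overlapped. The repeat was in 0 of the 13 windows and in 0.0396% of all 32851 windows. An E-box, present in 7.15% of all windows, was found in a window of Lpin2 at -9, of Lipe at -155 and of Mgll at -44 from the start. The forkhead site, present in 3.65%, was found in windows of Lpin2 at -138, Lipe at -119 and Mgll at -241. The core site, present in 16.3%, was found in windows of Gpam and Lpin1. A match is a description of the letters and not a sign of binding. In the sequences, capitals mark these matches. The windows are chr7:25395938-25396237 and chr7:25390063-25390362 on the minus strand for Lipe and chr6:88724162-88724461 on the plus strand for Mgll.
Lipe start region upstream: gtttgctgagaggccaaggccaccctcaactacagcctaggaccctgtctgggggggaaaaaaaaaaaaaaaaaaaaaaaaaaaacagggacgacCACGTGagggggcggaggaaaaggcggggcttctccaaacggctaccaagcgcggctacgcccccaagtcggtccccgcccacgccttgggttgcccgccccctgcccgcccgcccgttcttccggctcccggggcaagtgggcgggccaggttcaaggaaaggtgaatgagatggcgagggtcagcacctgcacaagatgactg
Lipe start region downstream: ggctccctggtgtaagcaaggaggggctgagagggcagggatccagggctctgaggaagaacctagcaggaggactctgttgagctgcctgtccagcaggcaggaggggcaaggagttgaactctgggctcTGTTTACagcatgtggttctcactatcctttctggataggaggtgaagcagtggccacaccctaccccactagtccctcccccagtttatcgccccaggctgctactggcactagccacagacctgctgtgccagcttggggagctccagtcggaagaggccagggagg
Mgll start region: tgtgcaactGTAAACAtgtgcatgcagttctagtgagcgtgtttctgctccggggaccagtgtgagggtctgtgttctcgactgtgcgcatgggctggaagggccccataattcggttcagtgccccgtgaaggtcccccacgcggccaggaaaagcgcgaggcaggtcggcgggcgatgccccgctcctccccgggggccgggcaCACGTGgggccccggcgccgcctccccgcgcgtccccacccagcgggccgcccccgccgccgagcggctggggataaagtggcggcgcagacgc

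Other genes of the pathway were taken from a list of 31, all of which were tested. In LWT 10 rose and 6 fell (38.3% of all genes were called), and in LKO 6 rose and 9 fell (40.3%). The difference of effects was called higher for 2 and lower for 9 (5.41%). Between genotypes, 3 were lower in LKO under vehicle (1.18%), and 5 were higher and 15 lower under CL316243 (15.9%). The median of the list was 0.11, -0.20, -0.34, 0.01 and -0.39 in the 5 comparisons in that order. Without both agonist arrays of replicate 3 the counts were 12 and 8, 6 and 10, 2 and 11, 0 and 4, and 4 and 16. The counts over all 21331 genes in that fit, given above, are the background for these.

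Genes that supply glycerol 3-phosphate numbered 7, of which 3 rose and 2 fell in LWT, and 1 rose and 2 fell in LKO. The shares of all genes called, 38.3% in LWT and 40.3% in LKO, are the background for these and the counts of the other lists. Aqp3, a channel for glycerol and water, was well above background on 0 of 6 arrays in LWT vehicle and in both LKO groups, and on 6 of 6 in LWT CL316243, at -3.32 to -0.81 (median -1.21). This was at least 9.10-fold higher than in LWT vehicle and at least 7.67-fold higher than in LKO CL316243. Aqp3 passed the filter on dim probes only through the group where it was high, so its calls are no independent support. The bound sets the bright group against the lowest signal that counted as above background on each array of the dim group.

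Of 11 other acyltransferases and phosphatases, 3 rose and 2 fell in LWT and 4 rose and 3 fell in LKO. Gpat3, named Agpat9 on the array, encodes a glycerol-3-phosphate acyltransferase of the endoplasmic reticulum. In LWT its signal was -1.10 to 0.66 under vehicle and 3.74 to 4.62 under CL316243, and in LKO -3.33 to -2.12 and -0.16 to 2.91. Neither treatments within a genotype nor genotypes within a treatment overlapped. It rose 25.5-fold in LWT (log2 4.67, adjusted p 1.07e-08) and 13.4-fold in LKO (log2 3.74, adjusted p 5.13e-07), and the effects differed by -0.93 without passing the test (adjusted p 0.423). It was lower in LKO by 2.26 under vehicle (adjusted p 0.00275) and by 3.18 under CL316243. Plpp1, a lipid phosphate phosphatase, and Agpat4, an acyltransferase of the Agpat family, each rose by 0.78 in LKO, and by 0.74 and 0.31 in LWT. Without both agonist arrays of replicate 3, limma called Plpp3 higher in LWT (0.50, adjusted p 5.78e-04) and lower in LKO (-0.34, adjusted p 0.0129). That fit called Plpp2 lower in LWT (-0.28, adjusted p 0.0455) and higher in LKO (0.30, adjusted p 0.0318).

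Storage helpers numbered 3. Fitm1, which helps to package triglyceride into droplets, was lower in LKO under vehicle by 2.40 (adjusted p 8.38e-06) and under CL316243 by 2.51, and was called in neither agonist comparison. Of 10 other lipases and their regulators, 3 rose and 2 fell in LWT and 1 rose and 3 fell in LKO. Abhd6, another monoacylglycerol lipase, lay in LWT at 1.12 to 1.73 under vehicle and 2.74 to 3.35 under CL316243, against 0.63 to 0.98 and 0.39 to 0.93 in the LKO groups. It rose by 1.65 in LWT (adjusted p 8.66e-10), with -0.03 in LKO, and the effects differed by -1.67 (adjusted p 1.10e-06). It was also lower in LKO under vehicle (-0.71, adjusted p 0.00148). G0s2, an inhibitor of adipose triglyceride lipase, rose by 3.19 in LWT, with -1.23 in LKO (adjusted p 0.0807), or -0.65 without both arrays of replicate 3, and Pnpla2, which encodes that lipase, rose by 1.49 in LWT, with 0.18 in LKO (adjusted p 0.411).

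**Figure D4:**
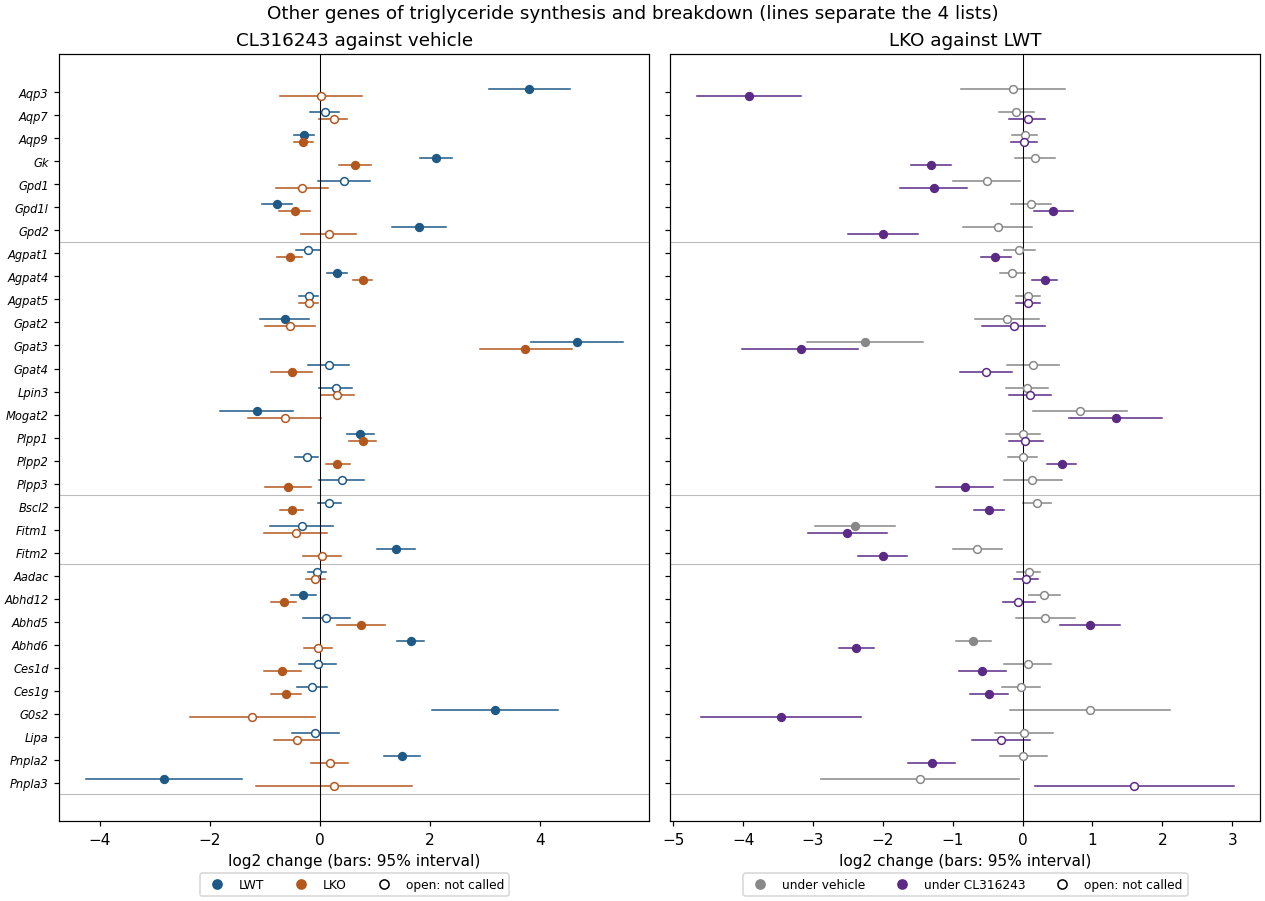
Log2 change with its 95% interval for the 31 other genes of the pathway, in 4 lists separated by lines, CL316243 against vehicle on the left and LKO against LWT on the right, filled where called. Gpat3 has filled points far to the right in both genotypes (4.67 and 3.74), while those of Aqp3 and G0s2 are filled in LWT and open in LKO, and Aqp3 is drawn from measured signals that were not well above background in 3 of the 4 groups.

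The genes most like each member over the 24 arrays were sought for the 7 members called between genotypes under CL316243. These correlations describe arrays that share 4 groups, and no test was made. Agpat3 ran with Hsd17b4, Cpt2 and Ephx2 (Pearson r 0.98 each), of which Hsd17b4 and Cpt2 encode enzymes of peroxisomal and mitochondrial fatty acid oxidation. Mgll ran with St3gal5 (r 0.97), Cgref1 and Hsdl2 (r 0.96 each). Lipe ran with Ccdc144b (r 0.94), Acaa2 and Grhpr (r 0.93 each), which fell to 0.53, 0.49 and 0.37 after the group means were taken out, so that most of that likeness lay between groups. Agpat2 ran with Fam20a (r 0.93), Hykk and Cpox, and Lpin2 with Agpat2 (r 0.85), Plpp3, named Ppap2b on the array, and Crip2. Lpin2 and Agpat2 still had an r of 0.81 within groups, where both were low in replicate 3 of the agonist groups. Dgat1 ran with March6, Pnpla2 and Por (r 0.85 each), and Mogat1 with Nudt12 (r 0.82), Mterf4 and Fabp2.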

How the data were processed

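Per the file headers, the deposited scanner tables come from version 10.10.1.1 of Agilent's Feature Extraction and give background-subtracted intensities per spot on a linear scale. They also hold other columns, flags of 0 or 1 for spots well above background, saturated or outlying, deposited by the authors. The series table deposited by the authors holds log2 values of 31367 probes. All its column medians were 8.08, and after centring each probe its columns correlated at 0.92 or more with the log2 intensities of their own array and at 0.74 or less with those of other arrays. Its values are described as quantile normalized. The series table served as an alternative.

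Non-control spots were used (59305 of 62976), outlier spots were removed, and log2 intensities were set against each array's 75th percentile (397.4 to 577.7 in intensity). A probe was kept if 4 or more of the 6 arrays of some group had it well above background, and every group had 3 or more values. The brightest kept probe represented its gene. limma 3.58.1 in R 4.3.3 fitted 1 mean per group to 24 arrays, and p-values were adjusted by Benjamini-Hochberg over all genes, or over all probes for results by probe. The fit was tested on simulated data. The number of arrays limits the precision, with a median standard error of 0.13 for a difference between groups and 0.19 for a difference of effects. The design text says that 6 mice were used per condition, so arrays of a group are separate mice. The highest correlation between arrays of a group was 0.994, and each array counted once. Other tools and versions were not given in the sources used here.

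The 10 genes and all lists were chosen with earlier results of these data known. Named genes are all 10, the 3 called pathway genes with the largest change in each comparison and any called in opposite directions (there were 0), the 3 genes most correlated with each member called in the difference of effects or between genotypes under CL316243, and Ppara. Pnpla2 and the marker genes were named beside them after their values were seen. The 9 marker lists, whose genes can also be expressed by other liver cells, hold hepatocyte, adipocyte, brown adipocyte, macrophage, endothelial, stellate, cholangiocyte, neutrophil and pancreas genes. Alternatives were other normalizations, filters, blocks and probe rules, the series table and leaving out each mouse. Leaving out both agonist arrays of replicate 3 was chosen after seeing the data.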

Additional observations from a re-analysis of the deposited data

Results flagged for a closer look

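Of 40 sets of 6 values (10 genes in 4 groups), 5 held a mouse far from the others of its group. Chance gives about 1 in 20. Gpam in LKO vehicle replicate 2 was at 6.69, with the next mouse at 5.64. In LKO CL316243, replicate 3 was low for Agpat2 (5.24, next 6.32), Lpin2 (2.45, next 4.57) and Dgat2 (7.0, next 7.69), and replicate 4 was low for Lpin1 (2.74, next 3.53). Without Gpam's high vehicle mouse, the decrease of Gpam in LKO was -0.87 (limma, adjusted p 0.0452).

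The CL316243 effects differed between genotypes, by the interaction in the limma fit over all genes, for Agpat3 (-0.42, LKO minus LWT) and for Lipe (-1.06). Agpat3 lay higher than the LWT vehicle mean in 6 of 6 LWT agonist mice and Lipe likewise, and Lipe lay lower than the LKO vehicle mean in 6 of 6 LKO agonist mice.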

How the results depend on the processing

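The 10 members were followed through 12 alternatives (11 for the difference of effects) and 24 fits that left out 1 mouse each. Of 590 log2 changes under the alternatives, 542 kept their direction and their side of the threshold, 17 lost a call, 21 gained one and 10 changed sign, and 0 of the sign changes was of a called value. Of 1200 with 1 mouse left out, 1135 kept both and 27 changed sign, 0 of them called.

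The requirement of at least 1.5-fold left 2 members called in LWT, 1 in LKO, 1 in the difference of effects and 0 between genotypes under vehicle, where limma without it called 1. In LKO, 5 members were called under quantile normalization and 5 in the series table, against 3. The mean of all kept probes of a gene gave 4 in the difference of effects, with 448 of all genes higher and 783 lower. Leaving out both agonist arrays of replicate 3 gave 4 there and 2 under vehicle, beside the counts over all genes given above. Under CL316243, the genotype count of 7 was 4 with no filter on dim probes and 3 with only the arrays of the groups compared. With 1 mouse left out the counts were 4 to 6 in LWT, 2 to 4 in LKO, 2 to 4 in the difference of effects, 1 to 2 under vehicle and 4 to 8 under CL316243. The cause was not tested.

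Sign changes, none of a called value, were those of Lpin1 in LWT (-0.04 under quantile normalization, -0.02 in the series table), Lpin2 in LKO (0.05 without both replicate 3 arrays), Dgat1 in LKO (-0.01 with normexp, -0.06 without both replicate 3 arrays), Mogat1 in LKO (0.09 with normexp), Agpat2 and Lpin2 between genotypes under vehicle (0.01 each with the mean of probes, and 0.02 for Lpin2 under quantile normalization) and Lpin1 under CL316243 (0.00 with the mean of probes). With 1 mouse left out, uncalled values that changed sign ranged over -0.20 to 0.25 for Lpin1 with CL316243 in LWT, -0.48 to 0.05 for Lpin2 with CL316243 in LKO, -0.06 to 0.06 for Dgat1 with CL316243 in LKO, -0.24 to 0.09 for Mogat1 with CL316243 in LKO, -0.03 to 0.43 for Lpin1 in the difference of effects, -0.13 to 0.11 for Lpin2 between genotypes under vehicle and -0.28 to 0.13 for Lpin1 between genotypes under CL316243.

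Replicate numbers were not treated as pairs: correlations of deviations between mice of the same number ran from -0.18 to 0.42, not all over 0.1, though 10 of 24 mice correlated best with their own number, a hint from the data and not from the design. With the replicate block, 5 members were called in LKO against 3, and 5, 3, 1 and 8 in the other comparisons in their order.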
